A study of Homo sapiens with 24 samples.

Results

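The early decay change with SETD2 knockdown is, for each gene, the log2 change in RNA level over 1 h of actinomycin D in the shSETD2 line minus the same change in the shCtrl line. It rests on 8 of the 24 libraries of a study that followed RNA through 0, 1, 3 and 6 h of actinomycin D in 3 stable lines of HepG2, a human hepatocellular carcinoma line, by RNA sequencing. Each line carried a lentiviral short hairpin RNA and was kept under puromycin selection at 1 ug/mL: shSETD2 against SETD2, shMETTL14 against METTL14, and shCtrl with a non-specific hairpin. The 8 libraries are 2 each of shSETD2 after 1 h of actinomycin D at 5 ug/mL, shSETD2 untreated (0 h), shCtrl after 1 h of the drug and shCtrl untreated. Every line is an infected and selected culture with 1 hairpin label, so an effect of the hairpin and an effect of the knockdown cannot be told apart. The series' design text calls the pairs biological replicates, but no source used here says whether they were separate cultures, and p-values therefore measure the spread between these libraries. Of 34618 genes in the count table, 14887 had enough counts to be tested, and all of them were examined for the interaction.

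Actinomycin D intercalates into DNA and stops transcription, so that the level of a transcript afterwards falls at the rate at which the RNA is degraded, measured against the rest of the RNA. Transcripts of immediate early genes, feedback inhibitors and many transcription factors are short-lived, in part through AU-rich elements in the 3′ UTR that recruit deadenylating proteins. SETD2 trimethylates histone H3 at lysine 36 on transcribed gene bodies, and METTL14 is a subunit of the complex that writes N6-methyladenosine (m6A) on RNA, a mark that shortens the life of many transcripts.

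The interaction passed the threshold in 7 genes, of which 6 are described. PIK3R3, SOX5 and ZBTB39 were higher, that is, less was lost in shSETD2 than in shCtrl, and PIM1, IER3 and RHOB were lower, with more lost in shSETD2. Before their values, a stretch of 30 bases from the 3′ UTR of each is shown, because each of the 6 holds the AUUUA pentamer, the core of AU-rich elements, and because the stretches differ in how the pentamers stand. Each is a 30-base window with the most pentamers in the 3′ UTR of the gene's principal transcript. Where windows tied, 1 from the first run of them after the stop codon is shown. The stretches are read 5′ to 3′ on the transcript strand from GENCODE release 29 (GRCh38), with T for U and the pentamers in capitals. The windows lie at chr1:46043130-46043159 on the minus strand (PIK3R3), chr12:23533278-23533307 on the minus strand (SOX5), chr12:57001265-57001294 on the minus strand (ZBTB39), chr6:37174987-37175016 on the plus strand (PIM1), chr6:30743647-30743676 on the minus strand (IER3) and chr2:20448869-20448898 on the plus strand (RHOB).
PIK3R3: gcttgggatttcATTTAaataatctaagcc
SOX5: gagacataagaaATTTAgagaaaaatattt
ZBTB39: ggacattaatATTTATTTAtttttgttttt
PIM1: ttatgtATTTATTTATTTATTTAtttggtt
IER3: aattaatATTTAtatgtATTTAtgtacgtc
RHOB: atgttatttgATTTATTTAaaggctaaaat
PIM1 carried 4 overlapping pentamers in its window, ZBTB39 and RHOB 2 overlapping ones, IER3 2 apart from each other, and PIK3R3 and SOX5 1.

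Over the whole 3′ UTR, PIM1 held 5 pentamers in 1335 bases, IER3 6 in 737, RHOB 4 in 1389, ZBTB39 11 in 3945, SOX5 2 in 1867 and PIK3R3 5 in 3533. The pentamer is common: among tested genes whose 3′ UTR was of like length (the shorter at least 0.8 times as long as the longer), 66.1% held it at the length of IER3, with a median of 1 copy, 81.2% at the length of PIM1, with a median of 2, and 97.2% at the length of PIK3R3, with a median of 8. At the length of RHOB 82.3% held it, with a median of 2, and at the length of SOX5 88.9%, with a median of 3. At the length of ZBTB39 the share was 97.5%, with a median of 8. The letters TTATTTATT, a stricter form of the element that overlaps the pentamer, were found 3 times in PIM1 and 1 time in ZBTB39, and 7.27% and 18% of 3′ UTRs of like length held them. The presence of these letters is a description and no evidence of binding. The other 4 genes did not hold TTATTTATT, and the letters of the Pumilio motif TGTANATA were found only in PIM1, 1 time.

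SETD2 itself was lower in the shSETD2 line. It stood at 90.4 and 81.7 CPM (counts scaled to a common library size with TMM factors) in shSETD2 and 131 and 129 CPM in shCtrl at 0 h, and at 63.0 and 66.3 CPM in shSETD2 and 102 and 101 CPM in shCtrl at 1 h. Both shSETD2 libraries lay below both shCtrl libraries at each time, by 0.59 on the log2 scale at 0 h (adjusted p = 1.203e-07, edgeR quasi-likelihood test with Benjamini-Hochberg adjustment over all genes, as for every adjusted p below unless another test is named) and by 0.65 at 1 h (adjusted p = 3.127e-08). The first-hour log2 change of the SETD2 transcript was -0.41 in shSETD2 and -0.35 in shCtrl, an interaction of -0.060 (95% interval -0.25 to 0.13). METTL14 stood at 38.0 and 38.6 CPM in shSETD2 and 29.3 and 30.03 CPM in shCtrl at 0 h. It was 0.37 higher on the log2 scale in shSETD2 than in shCtrl at 0 h (adjusted p = 0.0026) and 0.34 higher at 1 h (adjusted p = 0.00564), and its interaction was -0.027 (95% interval -0.30 to 0.25). The METTL14 differences did not pass the threshold with library size as the only scaling (adjusted p = 0.0592 at 0 h and 0.0642 at 1 h) or on the RPKM values with limma (0.157 and 0.160), and at 0 h without the first (0.105) or second (0.0655) shCtrl library.

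The 8 libraries held 22120346 to 31402091 counts, at which 3 counts correspond to between 0.0948 and 0.124 CPM. Mitochondrially encoded transcripts took 6.887% to 8.899% of the counts, with each of the 4 shSETD2 libraries above each of the 4 shCtrl libraries; the part of this share in the interaction was not tested beyond the scaling without mitochondrial genes, under which the 7 genes kept their calls. The summed level of 10 hepatocyte markers was between 100100 and 112700 CPM in shSETD2 and between 52000 and 58680 CPM in shCtrl, and all 10 were detected. Of 9 fibroblast markers, COL1A2 and DCN were at 0 in the 8 libraries, and the summed level of the list was 18.5 to 26.2 CPM in shSETD2 and 13.4 to 16.01 CPM in shCtrl. Of 13 blood and immune markers, PTPRC, CD3E and MS4A1 were at 0, and LYZ accounted for most of the sum, which was 1372 to 1563 CPM in shSETD2 and 1047 to 1300 CPM in shCtrl. Of 8 HEK293T markers, NEFL and EN2 were at 0, and LIN28B accounted for most of the 144 to 185 CPM in shSETD2 and the 167 to 189 CPM in shCtrl. Of the 9 endothelial and stellate markers in the table, KDR and TEK were at 0, and RELN accounted for most of the 1401 to 1461 CPM in shSETD2 and the 2392 to 2581 CPM in shCtrl. No ERCC spike-in entries were in the count table, so every value is relative to the other RNA of its library, and less RNA per cell and fewer cells cannot be told apart.

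The 7 genes were 0.0470% of the genes tested; the 3 higher ones were 0.0202% and the 4 lower ones 0.0269%. At an unadjusted p under 0.05 there were 661 genes, 4.44% of those tested, where 5% would be 744; 346 were higher (2.32%) and 315 lower (2.12%). All 7 had a mean of at least 5 CPM in at least 1 of the 4 groups, and in each the 4 differences between a 1 h and a 0 h library of shSETD2 lay wholly above or wholly below the 4 of shCtrl; this separation was shared by 3258 of the genes tested, or 21.9%, with 1464 above (9.83%) and 1794 below (12.1%). When any 1 of the 8 libraries was left out, 0 or 1 gene passed the threshold: SOX5 without the second shCtrl library at 0 h, and ZBTB39 without the second shCtrl library at 1 h. The 7 interactions kept their sign in each of those fits. DESeq2 called 11 genes and edgeR with the replicate number as a block called 12, including the 7 in each case, while limma on log2(RPKM + 0.1) called 0, with 591 at an unadjusted p under 0.05. The split of the calls moved with the setting: library size alone called 4 genes (PIK3R3, SOX5 and ZBTB39 higher, PIM1 lower), a fit without the filter on low counts 21 (10 higher and 11 lower), and a fit of only the 8 libraries 31 (24 higher and 7 lower), with the 7 among them in these last 2 fits.

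**Figure D1:**
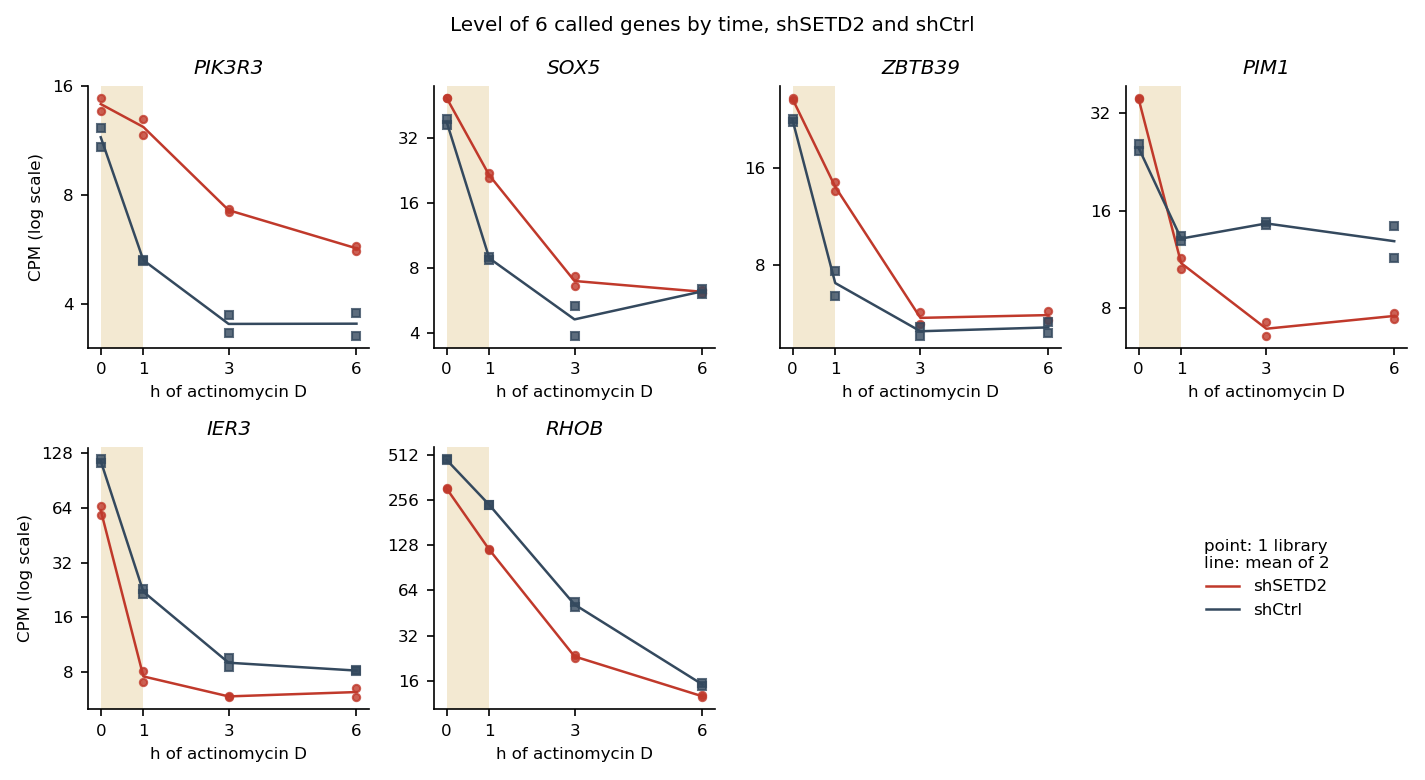
Level in CPM (log2-spaced axis) of the 6 genes at 0, 1, 3 and 6 h of actinomycin D in shSETD2 (red circles) and shCtrl (dark squares), with 1 point per library, a line through the mean of 2 and the first hour shaded. In the shaded hour the shCtrl line is the steeper for PIK3R3, SOX5 and ZBTB39, and the shSETD2 line for PIM1, IER3 and RHOB.

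PIK3R3 encodes a regulatory subunit of class I phosphoinositide 3-kinase (ENSG00000117461; chromosome 1, 46505812 to 46642160, minus strand, GRCh37). In shSETD2 it stood at 14.9 and 13.7 CPM at 0 h and at 11.7 and 12.98 CPM at 1 h, and in shCtrl at 12.2 and 10.9 CPM at 0 h and at 5.27 and 5.29 CPM at 1 h. The shSETD2 values of both times thus lay close together and the 1 h values of the 2 lines did not overlap. The first-hour log2 change was -0.22 in shSETD2, which did not pass the threshold (adjusted p = 0.140), and -1.13 in shCtrl (adjusted p = 3.136e-07), so that 86.0% of the level was left in shSETD2 and 45.8% in shCtrl. The interaction was 0.91 (SE 0.17, 95% interval 0.57 to 1.254, adjusted p = 0.0346). PIK3R3 overlaps 4 other annotated entries, among them TSPAN1 on the opposite strand. The highest mean of these 4 entries over all 24 libraries was 12.1 CPM. Since no source used here says whether strand was used in counting, the counts of PIK3R3 are uncertain.

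SOX5, a transcription factor of the SRY-box family, showed the smallest p of all genes (ENSG00000134532; chromosome 12, 23682440 to 24103966, minus strand, GRCh37). It stood at 48.9 and 49.1 CPM at 0 h and 20.9 and 22.2 CPM at 1 h in shSETD2, and at 39.2 and 36.8 CPM at 0 h and 8.77 and 9.03 CPM at 1 h in shCtrl. Both shSETD2 libraries were above both shCtrl libraries at each time, and the gap was wider at 1 h. SOX5 fell in both lines (log2 change -1.19 in shSETD2 and -2.09 in shCtrl), with 43.9% left in shSETD2 and 23.5% in shCtrl. The interaction was 0.90 (SE 0.14, 95% interval 0.62 to 1.19, adjusted p = 0.0128). A further entry that overlaps SOX5 had no counts.

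ZBTB39, a BTB-domain zinc finger gene (ENSG00000166860; chromosome 12, 57392618 to 57400230, minus strand, GRCh37), stood at 25.9 and 26.3 CPM at 0 h and 13.6 and 14.4 CPM at 1 h in shSETD2, and at 22.7 and 22.2 CPM at 0 h and 6.45 and 7.68 CPM at 1 h in shCtrl. Both shSETD2 libraries lay above both shCtrl libraries at each time, by 0.22 on the log2 scale at 0 h and by 0.98 at 1 h. It fell (log2 change -0.90 in shSETD2 and -1.66 in shCtrl), leaving 53.5% in shSETD2 and 31.6% in shCtrl. The interaction was 0.76 (SE 0.12, 95% interval 0.51 to 1.005, adjusted p = 0.0128).

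PIM1, a serine/threonine kinase and proto-oncogene induced by JAK-STAT signalling (ENSG00000137193; chromosome 6, 37137979 to 37143202, plus strand, GRCh37), stood at 35.3 and 35.6 CPM at 0 h and 10.6 and 11.5 CPM at 1 h in shSETD2, and at 24.4 and 25.7 CPM at 0 h and 13.4 and 12.9 CPM at 1 h in shCtrl. The shSETD2 libraries were the higher ones at 0 h and the lower ones at 1 h, with no overlap at either time. PIM1 fell (log2 change -1.69 in shSETD2 and -0.93 in shCtrl), so 31.0% was left in shSETD2 and 52.4% in shCtrl. The interaction was -0.76 (SE 0.12, 95% interval -1.005 to -0.51, adjusted p = 0.0128).

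IER3, an immediate early, stress-inducible gene that modulates apoptosis (ENSG00000137331; chromosome 6, 30710976 to 30712331, minus strand, GRCh37), had the largest first-hour fall of the 6. It stood at 65.2 and 58.5 CPM at 0 h and 7.05 and 8.13 CPM at 1 h in shSETD2, and at 113 and 118 CPM at 0 h and 22.8 and 21.4 CPM at 1 h in shCtrl. Both shSETD2 libraries lay below both shCtrl libraries at 0 h and at 1 h. The log2 change was -3.04 in shSETD2, where 12.2% was left, and -2.38 in shCtrl, where 19.2% was left. The interaction was -0.65 (SE 0.12, 95% interval -0.89 to -0.41, adjusted p = 0.0307). An overlapping antisense entry had a mean of 0.849 CPM over all 24 libraries.

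RHOB, an endosomal small GTPase with a short-lived transcript (ENSG00000143878; chromosome 2, 20646835 to 20649200, plus strand, GRCh37), was the most abundant of the 6. It stood at 305 and 309 CPM at 0 h and 119 and 121 CPM at 1 h in shSETD2, and at 474 and 482 CPM at 0 h and 238 and 240 CPM at 1 h in shCtrl. The shSETD2 libraries were lower at both times, without overlap. RHOB fell (log2 change -1.36 in shSETD2 and -0.998 in shCtrl), so 39.1% was left in shSETD2 and 50.1% in shCtrl. The interaction was -0.36 (SE 0.061, 95% interval -0.49 to -0.23, adjusted p = 0.0266). IER3 and RHOB each had an adjusted p of 0.0525 when library size was the only scaling.

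Of the genes just outside the threshold, RGL1 and C16orf87 came nearest, with interactions of 0.62 (SE 0.12) and 0.91 (SE 0.18) and an adjusted p of 0.0781 each. RGL1, an effector of Ras-type GTPases, stood at 35.1 and 36.2 CPM at 0 h and 30.2 and 27.8 CPM at 1 h in shSETD2, and at 29.5 and 27.96 CPM at 0 h and 13.8 and 16.5 CPM at 1 h in shCtrl. C16orf87 stood at 18.4 and 18.04 CPM at 0 h and 13.2 and 14.5 CPM at 1 h in shSETD2, and at 8.89 and 8.24 CPM at 0 h and 3.46 and 3.44 CPM at 1 h in shCtrl. TXNIP, an arrestin-domain protein that limits glucose uptake and binds thioredoxin, followed with an interaction of -0.54 (SE 0.12, adjusted p = 0.219). It stood at 75.3 and 74.8 CPM at 0 h and 22.97 and 25.1 CPM at 1 h in shSETD2, and at 7.51 and 6.86 CPM at 0 h and 3.34 and 3.31 CPM at 1 h in shCtrl.

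The later times of the same 2 lines are set beside the first hour with the caution that all 3 intervals share the 0 h libraries. PIM1 stayed lower. It was at 6.58 and 7.25 CPM in shSETD2 and 14.5 and 14.7 CPM in shCtrl at 3 h, with an interaction of -1.58 from 0 to 3 h (95% interval -1.85 to -1.31, adjusted p = 1.132e-07) and of -1.26 from 0 to 6 h (adjusted p = 5.059e-06). At 6 h PIM1 was at 7.39 and 7.76 CPM in shSETD2 and 11.4 and 14.3 CPM in shCtrl, where the 1 h values had been 13.4 and 12.9 CPM.

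RHOB and IER3 did not keep the sign of the first hour through 6 h. RHOB had an interaction of -0.52 from 0 to 3 h (adjusted p = 0.000118) and of 0.38 from 0 to 6 h (adjusted p = 0.00893), with 12.7 and 12.4 CPM in shSETD2 and 14.8 and 15.3 CPM in shCtrl at 6 h. IER3 had an interaction of 0.28 from 0 to 3 h (adjusted p = 0.367) and of 0.51 from 0 to 6 h (adjusted p = 0.0424). By 3 h IER3 was already at 5.84 and 5.95 CPM in shSETD2 and 9.55 and 8.50 CPM in shCtrl, and at 6 h at 6.59 and 5.87 CPM in shSETD2 and 8.24 and 8.10 CPM in shCtrl. Most of the IER3 signal was thus lost before 3 h in both lines.

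PIK3R3 kept a positive value at each later time, 0.74 from 0 to 3 h (adjusted p = 0.0519) and 0.39 from 0 to 6 h (adjusted p = 0.289), and was at 7.19 and 7.34 CPM in shSETD2 and 3.32 and 3.72 CPM in shCtrl at 3 h. With the other 3 scalings the 0 to 3 h value of PIK3R3 was 0.82 to 0.88 and passed the threshold (adjusted p between 0.0215 and 0.0324). SOX5 had values of 0.23 from 0 to 3 h (adjusted p = 0.601) and -0.38 from 0 to 6 h (adjusted p = 0.219), and ZBTB39 of -0.080 (adjusted p = 0.857) and -0.096 (adjusted p = 0.775); the sign of ZBTB39 turned under other scalings. At 6 h SOX5 was at 6.13 and 6.32 CPM in shSETD2 and 6.43 and 6.09 CPM in shCtrl, and ZBTB39 at 5.44 and 5.80 CPM in shSETD2 and 5.34 and 4.97 CPM in shCtrl, so the gap of the first hour was no longer seen in either.

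**Figure D2:**
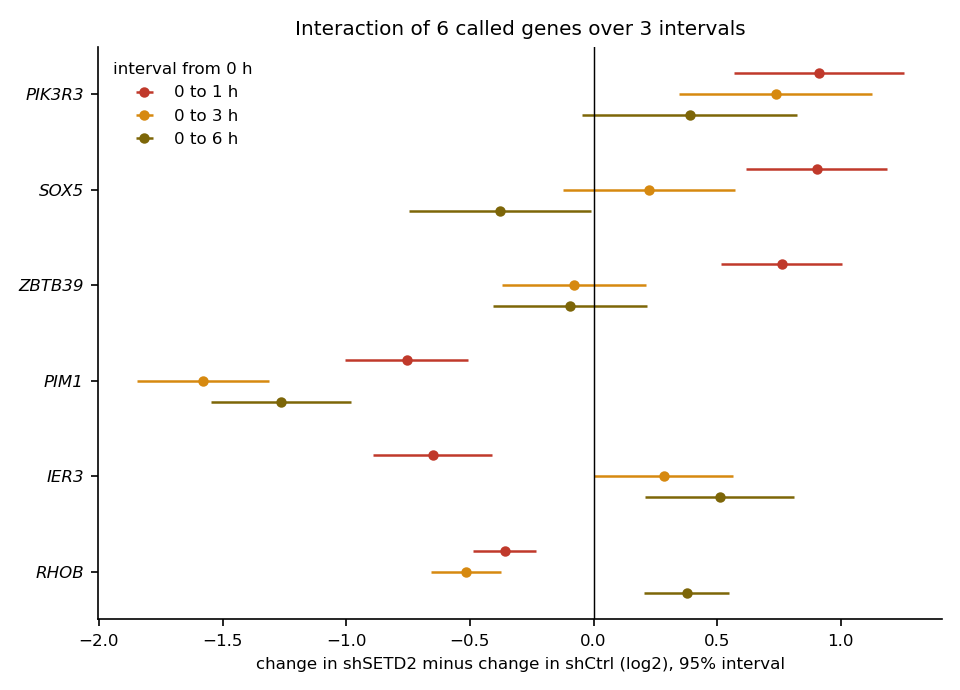
Interaction (change in shSETD2 minus change in shCtrl, log2) with its 95% interval for the 6 genes from 0 to 1 h, 0 to 3 h and 0 to 6 h, which share the 0 h libraries. The values of PIM1 lie below 0 and those of PIK3R3 above 0 in all 3 intervals (the 95% interval of PIK3R3 from 0 to 6 h includes 0). RHOB lies below 0 from 0 to 3 h and above 0 from 0 to 6 h, and IER3 above 0 in both later intervals. SOX5 lies above 0 from 0 to 3 h and below 0 from 0 to 6 h, and ZBTB39 below 0 in both later intervals.

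Across all genes, the interaction was called in 219 genes from 0 to 3 h (1.47%) and in 833 from 0 to 6 h (5.60%), against 7 in the first hour. This order did not hold when only the libraries of each contrast were fitted, which called 31 genes in the first hour, 1288 from 0 to 3 h and 24 from 0 to 6 h. The direction of those later calls depended on the scaling: 29 were higher (0.195%) and 190 lower (1.28%) from 0 to 3 h with TMM, but 134 higher and 61 lower with TMM computed without mitochondrial genes. From 0 to 6 h, 186 were higher (1.25%) and 647 lower (4.35%) with TMM, and 784 higher and 150 lower without mitochondrial genes, and the median over all genes moved from -0.072 with TMM to 0.10. The 2 shSETD2 libraries at 6 h also differed more from each other than any other pair, with a chi-square per degree of freedom of 16.9, where the other pairs lay between 1.354 and 5.322. Without the second of them 3592 genes were called from 0 to 6 h, and without any other library of that contrast between 337 and 709; from 0 to 3 h the count was between 57 and 149 when 1 library was left out.

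In the authors' deposited table of half-lives, which per the series' design text rest on 1, 3 and 6 h levels set against 0 h, values are listed for each of these 6 genes. PIM1 has 2.28 h in shSETD2 and 5.73 h in shCtrl, and ZBTB39 2.04 h in shSETD2 and 2.78 h in shCtrl in the authors' deposited table. The authors' deposited table gives SOX5 1.64 h in shSETD2 and 2.33 h in shCtrl, PIK3R3 2.78 h in shSETD2 and 3.21 h in shCtrl, IER3 1.83 h in shSETD2 and 1.60 h in shCtrl, and RHOB 1.12 h in shSETD2 and 1.10 h in shCtrl. The median over the 7772 genes of the authors' deposited table is 4.13 h in shSETD2 and 6.02 h in shCtrl. In that table the half-lives of PIK3R3, SOX5, ZBTB39 and PIM1 are shorter in shSETD2, as is the median over its genes. Those of IER3 and RHOB are longer, RHOB at 1.12 h against 1.10 h. In the first hour less of PIK3R3, SOX5 and ZBTB39 and more of PIM1, IER3 and RHOB was lost in shSETD2. Of the 6 genes, only PIM1 thus had the same direction in both. The deposited hours rest on levels up to 6 h, while the first-hour losses are relative to the rest of the library. No source used here states the formula behind the hours, so whether they too are relative to the library is not known. What lay behind the differences in direction was not tested.

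The shMETTL14 line gives a second comparison with the same 4 shCtrl libraries, so its values are set side by side only. The interaction of shMETTL14 against shCtrl in the first hour was called in 16 genes (0.107%), 8 higher and 8 lower, and in 2 to 6 genes when any 1 of its 8 libraries was left out. The split was 2 higher and 11 lower with library size alone, 34 higher and 13 lower with DESeq2, 32 higher and 13 lower with the replicate block, and 57 higher and 401 lower with only its libraries. For PIK3R3 it was 0.72 (adjusted p = 0.163), for ZBTB39 0.58 (adjusted p = 0.0632) and for SOX5 0.26 (adjusted p = 0.685). For IER3 it was -1.38 (adjusted p = 6.892e-07), for PIM1 -0.28 (adjusted p = 0.571) and for RHOB -0.23 (adjusted p = 0.226). RGL1 passed the threshold there with 0.74 (adjusted p = 0.00978).

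The direct comparison of the first-hour changes in shSETD2 and shMETTL14 uses no control library, and 19 genes passed the threshold (0.128%), 13 higher (0.0873%) and 6 lower (0.0403%), or 5 to 7 genes when any 1 of its 8 libraries was left out. This split too depended on the setting, with 29 higher and 2 lower under library size alone, 23 higher and 4 lower without mitochondrial genes, 31 higher and 34 lower with the replicate block and 29 higher and 23 lower with DESeq2. Of the 6 genes IER3 passed, with 0.73 (SE 0.13, adjusted p = 0.0144): it stood at 65.2 and 58.5 CPM at 0 h and 7.05 and 8.13 CPM at 1 h in shSETD2, and at 99.5 and 96.7 CPM at 0 h and 7.19 and 7.25 CPM at 1 h in shMETTL14. The 1 h levels of these lines overlapped and the untreated levels did not. SOX5 (0.64, adjusted p = 0.0585) and PIM1 (-0.48, adjusted p = 0.116) did not pass, nor did RHOB (-0.13, adjusted p = 0.555), PIK3R3 (0.19, adjusted p = 0.781) or ZBTB39 (0.18, adjusted p = 0.682).

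Beyond the 7 genes, the first hour changed many transcripts in each line. In shSETD2, 2403 genes fell (16.1%) and 1883 rose (12.6%), together 28.8% of the genes tested; in shCtrl, 2374 fell (15.9%) and 2048 rose (13.8%), together 29.7%. Falls of at least 1 on the log2 scale were called in 381 genes in shSETD2 and 464 in shCtrl. When 1 of its 4 libraries was left out, the count of genes called was between 2236 and 3814 in shSETD2 and between 2609 and 3047 in shCtrl. With library size as the only scaling the calls split into 1228 higher and 2746 lower in shSETD2 and 1044 higher and 2936 lower in shCtrl. The median first-hour change over all genes was 0.012 in shSETD2 and 0.021 in shCtrl, and the median interaction was -0.011 with quartiles of -0.11 and 0.11.

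The precision of the interaction limits what could be seen. Its median SE was 0.15, and the 95% interval lay within 0.5 of 0 on the log2 scale for 8550 genes (57.43%) and within 1 of 0 for 11566 genes (77.69%). For the remaining genes a difference of that size between the lines was not excluded by the interval. The spread behind the SE was estimated from all 24 libraries. Among the pairs of the first hour, the chi-square per degree of freedom was 5.322 in shSETD2 at 1 h and 1.354 in shSETD2 at 0 h. In shCtrl it was 2.06 at 0 h and 1.683 at 1 h. Among the 346 genes with a positive interaction at an unadjusted p under 0.05, 161 had a negative first-hour change in both lines, 45 a positive one in both, and 140 a positive one in shSETD2 and a negative one in shCtrl. Over all 6977 tested genes with a positive interaction these counts were 2684, 2842 and 1448. Among the 315 with a negative interaction, 80 had a negative change in both lines, 80 a positive one in both, and 155 a negative one in shSETD2 and a positive one in shCtrl, where all 7910 tested genes with a negative interaction gave 2899, 3402 and 1605.

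**Figure D3:**
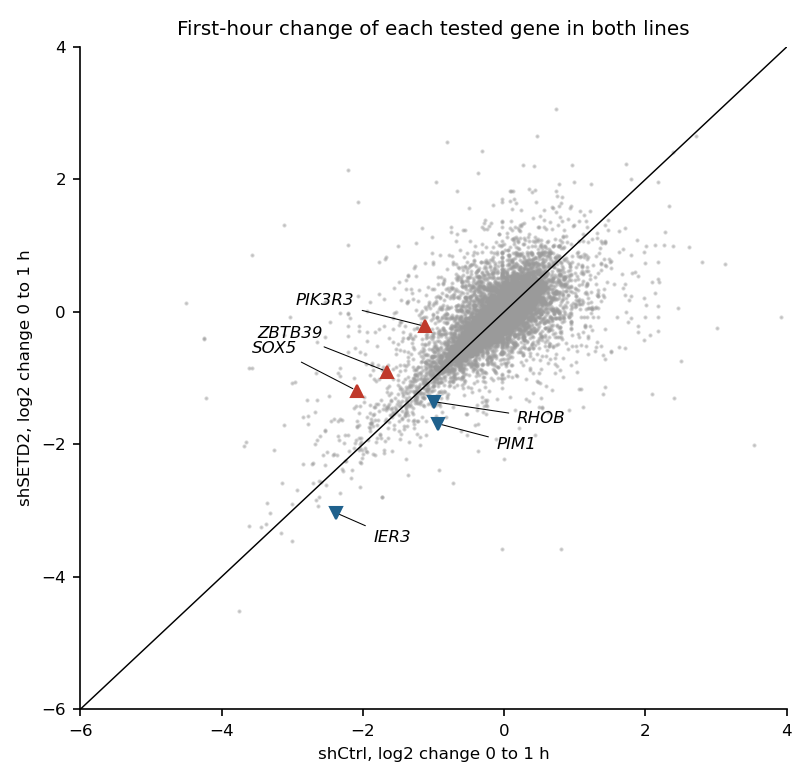
Log2 change from 0 to 1 h in shSETD2 (vertical) against that in shCtrl (horizontal) for the 14887 genes tested, of which 4 lie outside the axes; the line marks equal change. The 3 genes with a positive interaction (triangles up) lie above the line and PIM1, IER3 and RHOB (triangles down) below it.

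Of the gene lists with at least 10 tested members, the SOCS and PIM genes had the lowest median first-hour log2 change (-1.08 in shSETD2 and -0.93 in shCtrl). In the paragraphs on gene groups, the members named are those with the smallest p in the shSETD2 first hour or in the interaction, a choice made after the values were seen. Counts of rises and falls are at an adjusted p under 0.05 over all genes, to be read against the background of 16.1% falling and 12.6% rising in shSETD2, and counts at an unadjusted p under 0.05 in the interaction against 4.44%. For lists of fast-lost transcripts that last background is low. Of genes with a first-hour log2 change below -2 in shMETTL14, 11.5% had such a p, and of those between -2 and -1, 11.1%.

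Among 23 immediate early and AP-1 genes, 19 fell in shSETD2 and 16 in shCtrl, with a median log2 change of -0.63 in shSETD2 and -0.69 in shCtrl. EGR1, a zinc finger transcription factor, fell (log2 change -2.10 in shSETD2 and -1.96 in shCtrl), and JUN, a subunit of AP-1, fell (log2 change -2.15 in shSETD2 and -2.41 in shCtrl). The median interaction of the list was -0.018, which turned to 0.012 under another setting, and 4 of 23 had an unadjusted p under 0.05, 1 of them positive. They were IER3, called above, CTGF (-0.29, adjusted p = 0.299) and CYR61 (-0.29, adjusted p = 0.827), both secreted matricellular proteins, and MAFG (0.23), a small MAF transcription factor.

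Of 38 KLF and other short-lived transcription factors, 26 fell in shSETD2 and 28 in shCtrl, with medians of -0.78 in shSETD2 and -0.70 in shCtrl. SOX9, a factor of biliary and progenitor cells, stood at 259 and 89.5 CPM (means at 0 and 1 h) in shSETD2 and 259 and 71.8 CPM in shCtrl. It fell (log2 change -1.54 in shSETD2 and -1.85 in shCtrl), an interaction of 0.31 (SE 0.077, adjusted p = 0.357). KLF6 fell (log2 change -1.49 in shSETD2 and -1.67 in shCtrl), and CITED2, a transcriptional co-regulator, fell (log2 change -2.38 in shSETD2 and -2.29 in shCtrl). Of the 38, 7 had an unadjusted p under 0.05 in the interaction, 3 positive and 4 negative, and BHLHE40, a clock-linked repressor, had -0.42 (adjusted p = 0.842).

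Among feedback inhibitors of the ERK pathway, 13 of 19 fell in each line, with medians of -0.73 in shSETD2 and -0.55 in shCtrl. DUSP6, a phosphatase of ERK, fell (log2 change -2.85 in shSETD2 and -2.67 in shCtrl), DUSP1 fell (log2 change -3.23 in shSETD2 and -3.62 in shCtrl), and SPRY1, a Sprouty inhibitor, fell (log2 change -2.56 in shSETD2 and -2.63 in shCtrl). The list had 6 of 19 members at an unadjusted p under 0.05, 4 positive and 2 negative, among them SPRY2 (0.73, SE 0.20, adjusted p = 0.464) and DUSP5 (-0.71, SE 0.23, adjusted p = 0.737). None of the list passed the adjusted threshold for the interaction.

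Proteins that bind AU-rich elements or recruit deadenylases are themselves encoded by short-lived transcripts, and 16 of 21 fell in shSETD2 and 13 in shCtrl. ZFP36L2 fell (log2 change -1.99 in shSETD2 and -2.04 in shCtrl), an interaction of 0.045 (95% interval -0.12 to 0.21). ZFP36L1 fell (log2 change -1.51 in shSETD2 and -1.54 in shCtrl), and ZFP36 (tristetraprolin) fell (log2 change -3.35 in shSETD2 and -3.16 in shCtrl). BTG2, which recruits the CCR4-NOT deadenylase and is also a p53 target, had an interaction of 0.39 (SE 0.10, adjusted p = 0.421), the 1 member of the list at an unadjusted p under 0.05.

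Of 18 NF-kB subunits, inhibitors and targets, 8 fell in shSETD2 and 9 in shCtrl. NFKBIA, the inhibitor resynthesised after NF-kB activation, fell (log2 change -3.21 in shSETD2 and -3.37 in shCtrl), and TNFAIP3 (A20) fell (log2 change -1.77 in shSETD2 and -1.56 in shCtrl). Their interactions were 0.16 (adjusted p = 0.999) and -0.21 (adjusted p = 0.999). Among 11 SOCS and PIM genes, 8 fell in each line. PIM3, the paralogue of PIM1, fell (log2 change -1.69 in shSETD2 and -1.89 in shCtrl), an interaction of 0.19 (SE 0.16), so the sign of its value differed from that of PIM1; the difference between the paralogues was not tested.

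Of 30 p53 targets, 16 fell in each line, with medians of -0.30 in shSETD2 and -0.32 in shCtrl. The 6 members at an unadjusted p under 0.05 in the interaction, 20% of the list, were all positive. GADD45A, a growth-arrest gene, had 0.36 (SE 0.10, adjusted p = 0.475), PLK3 0.46 (SE 0.15, adjusted p = 0.719) and AEN, a nuclease, 0.24 (SE 0.093). The median interaction of the list was 0.039, against -0.011 over all genes. TGF-beta and BMP feedback genes and targets had 20 of 28 members falling in shSETD2 and 15 in shCtrl; 6 had an unadjusted p under 0.05, 5 of them positive, among them SMAD7, the inhibitory SMAD (0.72, SE 0.20, adjusted p = 0.464), and ID1 (0.29, SE 0.11).

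Cholesterol genes and endoplasmic reticulum chaperones had the lowest median interactions of the lists with at least 10 tested members. Of 29 genes of cholesterol synthesis, uptake and SREBP control, 6 rose and 4 fell in shSETD2, while 15 rose and 3 fell in shCtrl, with median first-hour changes of 0.091 in shSETD2 and 0.21 in shCtrl. The median interaction was -0.15, and between -0.15 and -0.12 under the other scalings and filter; 7 of 29 had an unadjusted p under 0.05, all negative. HMGCS1, which makes HMG-CoA, averaged 860 CPM at 0 h and 889 CPM at 1 h in shSETD2, and 196 CPM at 0 h and 263 CPM at 1 h in shCtrl. Its first-hour change was 0.047 in shSETD2 (adjusted p = 0.609) and 0.42 in shCtrl (adjusted p = 2.497e-05), an interaction of -0.37 (SE 0.089, adjusted p = 0.341). SQLE, squalene epoxidase, had -0.28 (SE 0.075, adjusted p = 0.421) and FDFT1, squalene synthase, -0.19 (SE 0.060, adjusted p = 0.674).

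Of 24 genes of the unfolded protein response and its chaperones, 7 rose and 9 fell in shSETD2, and 10 rose and 6 fell in shCtrl. The median interaction was -0.12, and 8 of 24 had an unadjusted p under 0.05, 7 of them negative. HSPA5 (BiP), the main chaperone of the endoplasmic reticulum, averaged 1120 CPM at 0 h and 1211 CPM at 1 h in shSETD2, and 1996 CPM at 0 h and 2538 CPM at 1 h in shCtrl. It rose by 0.11 on the log2 scale in shSETD2 (adjusted p = 0.0307) and by 0.35 in shCtrl (adjusted p = 2.832e-07), an interaction of -0.23 (SE 0.054, adjusted p = 0.278). HSP90B1 had -0.21 (adjusted p = 0.582) and PDIA6, a disulphide isomerase, -0.15 (adjusted p = 0.895). XBP1, the transcription factor of the response, fell (log2 change -0.49 in shSETD2 and -0.45 in shCtrl).

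Of 41 genes of lipogenesis, lipid storage and fatty acid oxidation, 7 rose and 7 fell in shSETD2, and 15 rose and 5 fell in shCtrl, and 6 had an unadjusted p under 0.05 in the interaction, 5 of them negative. LPIN1, a phosphatidate phosphatase, had -0.36 (SE 0.11, adjusted p = 0.705) and ELOVL6, a fatty acid elongase, -0.35 (SE 0.11, adjusted p = 0.737). In the glycolysis and hypoxia list of 36, 4 had an unadjusted p under 0.05, all negative; SLC2A1, the glucose transporter GLUT1, had -0.29 (SE 0.072, adjusted p = 0.401).

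Of 33 liver transcription factors and nuclear receptors, 18 fell and 1 rose in shSETD2, and 19 fell and 1 rose in shCtrl, with medians of -0.29 in shSETD2 and -0.48 in shCtrl. FOXA2, a pioneer factor of the liver, fell (log2 change -1.53 in shSETD2 and -1.58 in shCtrl), an interaction of 0.048 (95% interval -0.17 to 0.27). NR0B2 (SHP), the repressor of bile acid synthesis, fell (log2 change -1.85 in shSETD2 and -2.21 in shCtrl), and HNF4A had an interaction of 0.18 (SE 0.073). Of 54 hepatocyte secreted proteins, 29 rose and 1 fell in shSETD2, and 26 rose and 1 fell in shCtrl, with medians of 0.18 in shSETD2 and 0.17 in shCtrl. SERPINA3, an acute-phase protease inhibitor, was the member that fell (log2 change -2.06 in shSETD2 and -1.98 in shCtrl). In this list 1 of 54 had an unadjusted p under 0.05 in the interaction, APOA2, an apolipoprotein of HDL (-0.21, adjusted p = 0.973).

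ZNF-named genes, most of which encode DNA-binding zinc finger proteins, formed the largest list: of 432 tested, 271 fell in shSETD2 and 291 in shCtrl, with medians of -0.60 in shSETD2 and -0.63 in shCtrl. The median interaction was 0.038 and 23 of 432 (5.32%) had an unadjusted p under 0.05, 20 of them positive. ZNF217 fell (log2 change -1.93 in shSETD2 and -2.10 in shCtrl), and ZNF503 fell (log2 change -2.61 in shSETD2 and -2.53 in shCtrl). ZNF830 had the smallest p of the list in the interaction, 0.45 (SE 0.12, adjusted p = 0.421). Among 17 small nucleolar RNA host genes, 4 had an unadjusted p under 0.05, all positive: SNHG3 (0.33), SNHG7 (0.36), GAS5 (0.22) and SNHG1 (0.16). NEAT1, the paraspeckle noncoding RNA, rose by 2.01 in shSETD2 and by 1.80 in shCtrl while transcription was blocked. The median change over all genes was 0.012 in shSETD2 and 0.021 in shCtrl. What lay behind the rise of NEAT1 was not tested.

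In 4 lists of translation and respiration genes more members rose than fell in each line. Of 78 cytosolic ribosomal protein genes, 43 rose and 9 fell in shSETD2, and 52 rose and 8 fell in shCtrl, with medians of 0.22 in shSETD2 and 0.27 in shCtrl, a median interaction of -0.051 and 1 member at an unadjusted p under 0.05. Of 79 nuclear-encoded respiratory chain genes, 40 rose in shSETD2 and 46 in shCtrl, with 0 falling in either line and 1 at an unadjusted p under 0.05. Of 60 translation factors, 21 rose and 6 fell in shSETD2, and 31 rose and 5 fell in shCtrl. Of 22 cytosolic aminoacyl-tRNA synthetases, 10 rose and 1 fell in shSETD2, and 14 rose and 0 fell in shCtrl. A rise here is a rise relative to the rest of the library's RNA while transcription was blocked.

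The proteins that act on the marks and on decay did not have called interactions. The 10 tested members of the m6A writer complex had a median interaction of 0.012 with 1 at an unadjusted p under 0.05, RBM15 (0.30, SE 0.14). The 15 m6A readers and erasers had 0 members at an unadjusted p under 0.05, and YTHDF2, the reader that directs m6A-bearing RNA to decay, had an interaction of 0.072 (95% interval -0.12 to 0.26). Of the 29 H3K36 methylation enzymes and readers 1 and of the 64 genes of the RNA decay machinery 1 had an unadjusted p under 0.05. The levels of these transcripts, not the activity of the proteins, were measured.

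**Figure D4:**
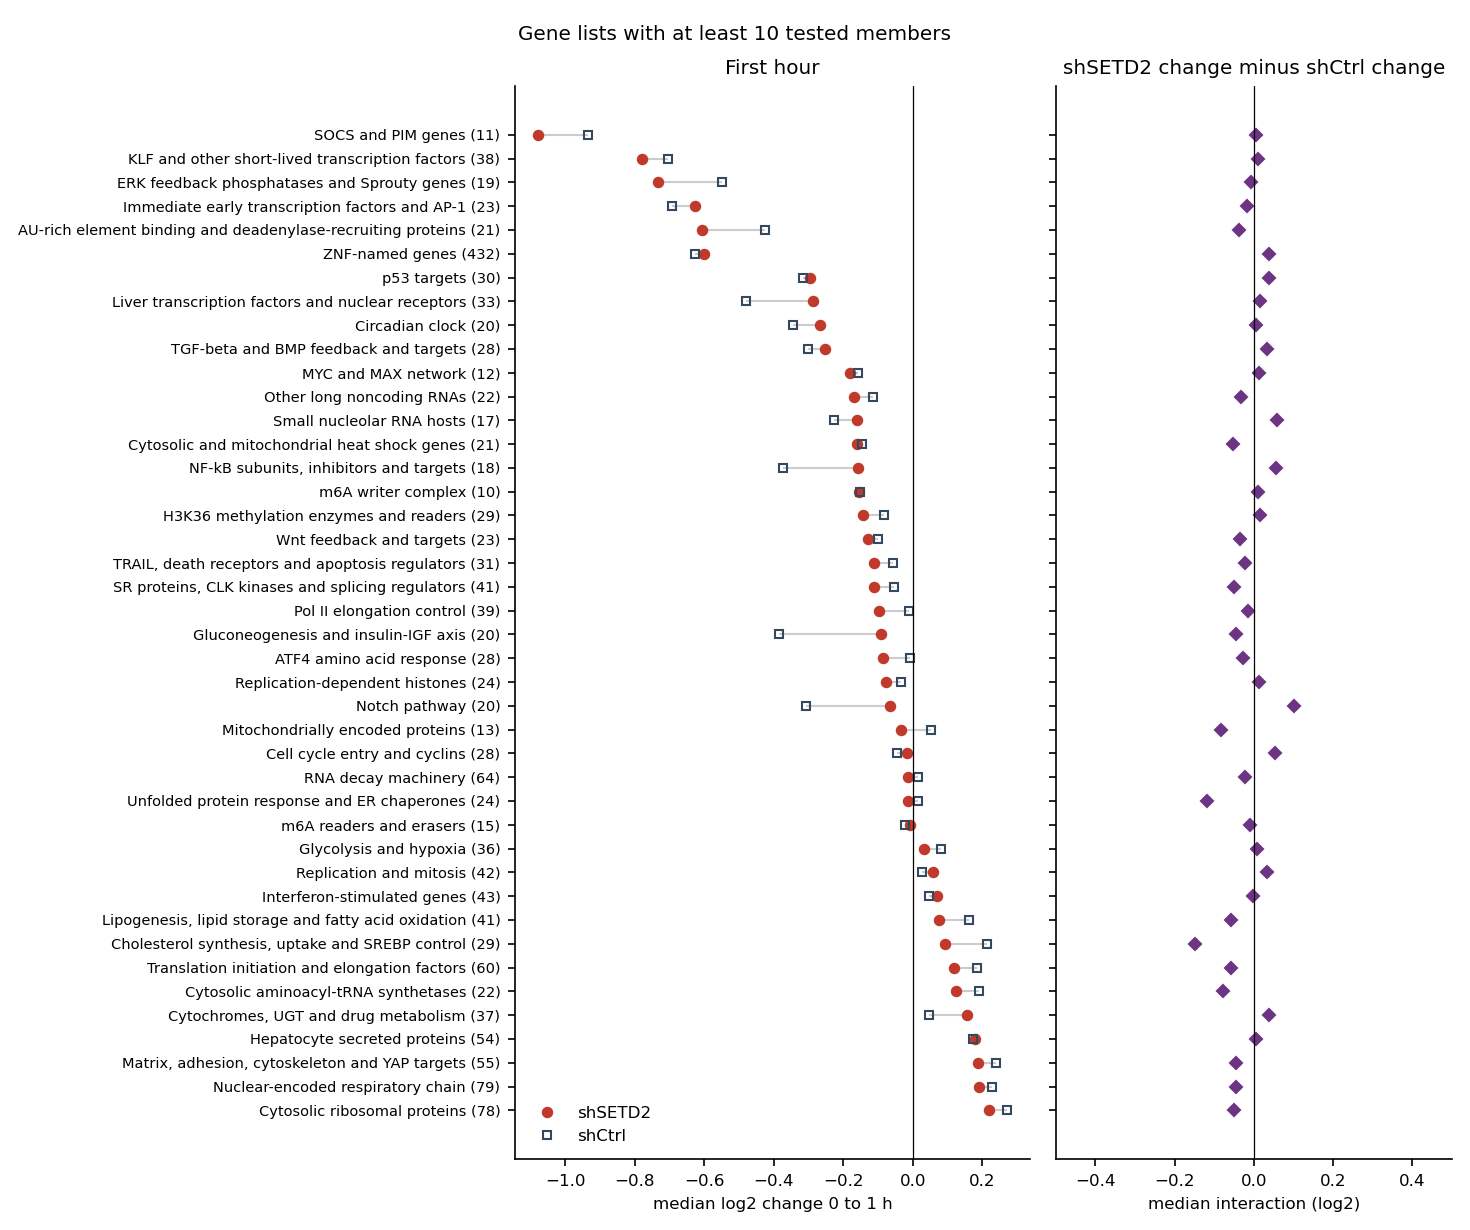
Left, the median log2 change from 0 to 1 h in shSETD2 (filled circles) and shCtrl (open squares) for the gene lists with at least 10 tested members, with the number tested in parentheses; right, the median interaction of the same lists. First-hour medians run from -1.08 to 0.22 in shSETD2, whereas the interaction medians lie between -0.15 and 0.10.

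To see whether the interaction followed how fast a transcript is lost, genes were sorted by their first-hour change in the shMETTL14 line, whose libraries do not enter the interaction. The 104 genes that changed by less than -2 on the log2 scale there had median first-hour changes of -1.99 in shSETD2 and -2.31 in shCtrl, and a median interaction of 0.18, with 70 of 104 above 0. Among the 49 of them with a mean of at least 5 CPM in at least 1 of the 4 groups the median was 0.14, and 12 of the 104 (11.5%) had an unadjusted p under 0.05. The 452 genes between -2 and -1 had a median interaction of 0.047, with 50 (11.1%) at an unadjusted p under 0.05, and held SOX5, PIM1, RHOB and ZBTB39. The 1134 genes between -1 and -0.5 had 0.030 and 5.82%. The 4731 genes between -0.5 and 0, with PIK3R3 among them, had -0.021 and 4.46%, and the 7758 between 0 and 0.5 had -0.012 and 3.75%; the sign of these 2 medians turned under other scalings. The 708 genes above 0.5 had 0.041 and 4.38%, with a median SE of 0.61, so the medians did not follow the first-hour change in 1 direction throughout. IER3 was in the fastest class. The median SE was 0.40 in the fastest class and 0.13 between 0 and 0.5. Of these classes, 49 of the 104 and 6027 of the 7758 genes had a mean of at least 5 CPM in at least 1 of the 4 groups.

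**Figure D5:**
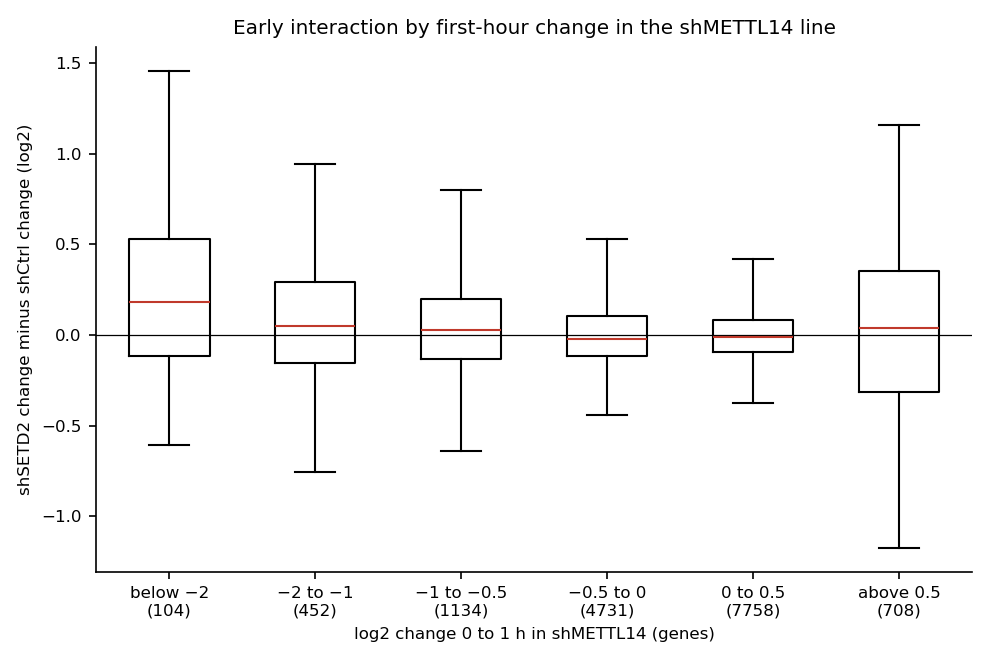
Interaction (shSETD2 change minus shCtrl change, log2) of the genes tested, sorted by their first-hour change in shMETTL14; boxes span the quartiles, red lines are medians and whiskers reach the 5th and 95th percentiles, with the number of genes in parentheses. The medians run from 0.18 in the class below -2 through -0.021 between -0.5 and 0 to 0.041 above 0.5, and each box spans 0.

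Genes that held each of 3 motifs in the 3′ UTR had a lower median first-hour change in both lines than genes that lacked it, and the medians of the interaction lay closer together. Of 12576 tested genes with a 3′ UTR in GENCODE release 29, 1038 (8.25%) held TTATTTATT, and their median first-hour change was -0.15 in shSETD2 and -0.12 in shCtrl, against 0.027 in shSETD2 and 0.038 in shCtrl in the genes that lacked it. Falls were called in 33.1% of the holders in shSETD2 and 30.6% in shCtrl, and in 16.1% of the others in shSETD2 and 16% in shCtrl. The median interaction was -0.024 in holders and -0.013 in the others, with 5.59% and 4.27% at an unadjusted p under 0.05. The Pumilio letters TGTANATA stood in 3317 genes (26.4%), with medians of -0.11 in shSETD2 and -0.073 in shCtrl and an interaction of -0.028, against 0.058 in shSETD2, 0.065 in shCtrl and an interaction of -0.0083 in the 9259 that lacked them. The pentamer ATTTA stood in 8618 genes (68.5%), whose median first-hour change was -0.049 in shSETD2 and -0.024 in shCtrl, against 0.15 in shSETD2 and 0.13 in shCtrl in the 3958 that lacked it. Their median interactions had opposite signs, -0.025 in holders and 0.013 in the others, with 4.77% and 3.54% at an unadjusted p under 0.05; the scaling alone moved the median of all genes between -0.011 (TMM) and 0.018 (library size alone). Holders have longer 3′ UTRs, with a median of 2856 bases for TTATTTATT against 962 bases in the others and 1647 bases for ATTTA against 347.5 bases, and UTR length was not held fixed. The scan read the transcript strand alone, counted overlapping matches, and all 3 motifs are rich in A and T.

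Gene length, the span from the first to the last base of a gene, was used to sort genes into groups of equal size because SETD2 acts along gene bodies. The median interaction was 0.012 in the 2978 shortest genes and -0.024 in the 2978 longest, and 5.34% and 3.56% of their genes had an unadjusted p under 0.05. PIM1, IER3 and RHOB lie in the shortest group, ZBTB39 in the second shortest (7.055 to 18.22 kb), and PIK3R3 and SOX5 in the longest. The median SE was 0.30 in the shortest group and 0.13 in the longest.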

How the data were processed

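RNA was sequenced from 24 libraries, 2 for each of 3 lines at 4 times, and the values used are those of 8 of them unless another line or time is named. The table of raw counts per gene was deposited by the authors. Cutadapt, TopHat, HTSeq 0.6.1p1 and GRCh37 are named in the submitters' processing notes. Their order, the annotation release and the strand setting were not found in any source used here. The RPKM values in the same file were deposited by the authors. The half-lives, in hours, were computed and deposited by the authors, by a formula that no source used here states. ERCC spike-ins are mentioned per the labels' protocols, but 0 such entries are in the table.

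Counts were analysed with edgeR 4.0.16 in R 4.3.3: TMM scaling, removal of genes with low counts (filterByExpr over the 12 groups), 1 model of all 24 libraries with a mean per group (12 residual degrees of freedom), and quasi-likelihood tests, two-sided, with Benjamini-Hochberg adjustment over 14887 genes and a threshold of 0.05. Totals of 22120346 to 31402091 counts per library set the precision, and intervals cover the spread between libraries only. CPM values are scaled by TMM. The alternatives were RLE scaling, library size alone, TMM without mitochondrial genes, no filter, a mean of at least 5 CPM, the replicate number as a block, DESeq2 1.42.0, limma 3.58.1 on log2(RPKM + 0.1), only the libraries of a contrast, and each library left out in turn.

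Genes were named if they passed the threshold with a mean of 5 CPM or more in at least 1 of the 4 groups, and had library-level changes that did not overlap. SETD2 and METTL14 were named in any case, and 1 gene that met the rule is not reported here. The comparison and the gene lists were chosen with earlier results of these data known, and further examples were chosen after their values were seen. The 3′ UTRs are those of GENCODE release 29 (GRCh38), matched by gene identifier. Date numbers stood in place of 29 gene symbols. These genes, and 180 entries that shared a symbol, were named by their gene identifiers.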

Additional observations from a re-analysis of the deposited data

Results flagged for a closer look

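The first-hour change differed between shSETD2 and shCtrl by the test of the difference itself in 7 genes, of which 6 are given. The log2 difference was 0.9107 for PIK3R3, 0.9025 for SOX5, 0.7601 for ZBTB39, -0.7558 for PIM1, -0.651 for IER3 and -0.3583 for RHOB. Between shSETD2 and shMETTL14, with no shared control library, the first-hour change differed in 19 genes, and of these 6 only IER3 was among them (log2 difference 0.7281, edgeR adjusted p = 0.0144). The causes were not tested.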

How the results depend on the processing

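The 7 interactions kept their sign under every alternative run. RLE scaling and TMM without mitochondrial genes called 7 genes and a mean of at least 5 CPM 8, while library size alone called 4, no filter 21, DESeq2 11, limma 0 (591 at an unadjusted p under 0.05) and only the 8 libraries of the contrast 31; the cause was not tested. Leaving out 1 library gave 0 to 1 genes, and 0 to 2 with the genes tested kept, a setting chosen after seeing the data. For shSETD2 minus shMETTL14, 19 became 31 with library size alone, 55 with no filter, 31 with at least 5 CPM, 52 with DESeq2, 6 with limma, 50 with only its libraries and 5 to 7 with a library left out. For shMETTL14 minus shCtrl, 16 became 41 with no filter, 47 with DESeq2, 5 with limma, 458 with only its libraries and 2 to 6 with a library left out. From 0 to 3 h, 219 became 133 with RLE, 124 with library size, 424 with no filter, 113 with limma, 1288 with only its libraries and 57 to 149 with a library left out. From 0 to 6 h, 833 became 1338 with no filter, 491 with limma, 24 with only its libraries and 337 to 3592 with a library left out. The first-hour calls were 2236 to 3814 in shSETD2 and 2609 to 3047 in shCtrl with a library left out. The METTL14 level difference was 0.2117 at 0 h and 0.2134 at 1 h with library size alone, 0.2086 and 0.2088 with limma, and 0.256 to 0.3793 at 0 h with a library left out.

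With the replicate number as a block, counts were 12 for the early interaction, 65 for shSETD2 minus shMETTL14, 45 for shMETTL14 minus shCtrl, 489 from 0 to 3 h and 1665 from 0 to 6 h. The samples share only a number: the correlation of the deviations of same-numbered libraries from their group means was between -0.033 and 0.0057 over the 4 groups of the first hour, and between -0.084 and 0.20 (median 0.018) over all 12 groups.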
